A study of Mus musculus with 6 samples.

Results

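The 26S proteasome is the protease that degrades ubiquitin-tagged proteins, and 34 of its genes were followed across 6 mouse liver tumours. The members were the Psma, Psmb, Psmc and Psmd genes of the constitutive particle and of its base assembly chaperones. Each was found through the transcript accession of its array probes, and where a gene had several probes the brightest by mean over the 6 arrays stood for it. All 34 members were found, on 54 probes, and each chosen probe was well above background on all 6 arrays. They were part of 27412 measured features, of which 15869 carried a gene symbol.

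RNA from frozen hepatocellular carcinomas (HCCs) of C57BL/6 mice was hybridised to 1-colour arrays, 1 sample to an array, in 3 groups of 2. Epcam-derived HCC with CLC and Epcam-derived HCC without CLC came from Epcam-AID mice that were given tamoxifen and then ate a diet with 0.1% DDC, a compound that injures bile ducts, for 8 months. Albumin-derived HCC, also without CLC, came from Alb-AID mice killed at 90 weeks, for which no tamoxifen or DDC is stated. The labels do not expand CLC or AID, which all 6 tumours share, and they describe the Epcam-derived tumours as descended from ductular progenitor cells. Origin, diet and tamoxifen thus changed together between the Epcam-AID and Alb-AID tumours, and their parts in a difference cannot be told apart. Age may differ too, since the labels give none for the Epcam-AID mice. The labels number the replicates without saying whether each tumour came from a separate animal, so p-values measure the spread between these samples.

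All 6 hepatocyte markers were well above background on every array. Array slides 1 and 2, scanned at separate times, split the tumours unevenly. Slide 1 held both Albumin-derived HCCs and replicate 1 of Epcam-derived HCC with CLC, and slide 2 held the other 3 arrays. The share of probes clearly brighter than background ran from 52.0% to 64.6%, and 0 spots were saturated. The 75th percentile of the processed signal was 315 and 488 in Epcam-derived HCC with CLC, 424 and 457 in Epcam-derived HCC without CLC, and 285 and 306 in Albumin-derived HCC. Signals below are log2 values relative to that percentile of the same array, so that 0 is the 75th percentile and 1 unit is a factor of 2. Differences between groups were tested with limma over all 27412 features, with Benjamini-Hochberg adjustment and a threshold of 0.05.

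A 26S proteasome joins a barrel, the 20S core, to 1 or 2 caps, the 19S regulators. The outer alpha rings of the core gate the entry of substrates, and the inner beta rings carry the proteolytic sites. The base of the cap holds a ring of ATPases that unfold substrates, and its lid removes the ubiquitin chain. In mammals the transcription factor NRF1 raises proteasome genes together when proteolysis is inhibited, and its relative NRF2 is known mainly for antioxidant genes and has also been linked to proteasome subunits. Interferon replaces the catalytic subunits with inducible ones and so forms the immunoproteasome.

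No proteasome gene passed the test in any of the 3 comparisons. Between Epcam-derived HCC with CLC and Epcam-derived HCC without CLC, 0 of 34 members passed, as did 0 of all features (0%). Between Epcam-derived HCC without CLC and Albumin-derived HCC, 0 of 34 members passed, beside 67 of all features (0.244%). Between Epcam-derived HCC with CLC and Albumin-derived HCC, 0 of 34 members passed, beside 17 of all features (0.062%). At an unadjusted limma p below 0.05 the count of members was also 0 in each, beside 3.48%, 20% and 16% of all features in the order of those comparisons. The 67 features were 16 higher and 51 lower, but with the authors' scaling of the arrays 63 were higher and 66 lower. These comparisons share samples and are not independent of each other.

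The members differed little between the groups and more between the replicates of Epcam-derived HCC without CLC. Their median log2 difference, Epcam-derived HCC with CLC minus Epcam-derived HCC without CLC, was 0.05, with the middle 50% of members between -0.06 and 0.15. The median over all features was -0.06. The difference was below 0 for 14 of 34 members, beside 56.9% of all features. This median was -0.30 without replicate 1 and 0.41 without replicate 2 of Epcam-derived HCC without CLC. Its sign thus turned with the array left out.

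Against Albumin-derived HCC, the median member difference was -0.27 for Epcam-derived HCC without CLC (middle 50%, -0.39 to 0.04) and -0.22 for Epcam-derived HCC with CLC (middle 50%, -0.31 to 0.02). The medians over all features were 0.06 and -0.01. Lower values were found for 25 of 34 members in Epcam-derived HCC without CLC, beside 46.5% of all features, but for 16 of 34 after quantile normalization. In Epcam-derived HCC with CLC 23 of 34 members were lower, beside 50.7% of all features, but 12 of 34 after quantile normalization. Quantile normalization gave member medians of 0.03 and 0.09, beside 0.07 and 0.01 for all features. The authors' scaling, 1 factor per array, moved every feature alike, to medians of 0.37 and 0.31 over all features and of 0.04 and 0.10 over the members. Relative to all features the members thus stayed at -0.33 and -0.21, as with the 75th percentile, but lay at -0.04 and 0.08 after quantile normalization. Fitting slide as a block gave medians of -0.0024 and -0.06. Only Epcam-derived HCC with CLC lay on both slides, so every fit of this kind took its slide term from those 2 arrays. Slide and the difference between those 2 tumours cannot be told apart there. The direction of the family against Albumin-derived HCC therefore did not hold under quantile normalization. It also depended on 1 array, since the median for Epcam-derived HCC without CLC was 0.15 without its replicate 1 and -0.61 without its replicate 2.

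The intervals show what these arrays could resolve. A member's 95% interval extended a median of 0.89 log2 units to either side of its difference. It lay within a 2-fold change either way for 15 of 34 members between the Epcam-derived groups, beside 34.8% of all features. Against Albumin-derived HCC it did so for 8 of 34 members in Epcam-derived HCC without CLC (21.7% of all features) and for 10 of 34 in Epcam-derived HCC with CLC (25%). The widest bound was a 3.35-fold change. A missed threshold therefore does not show that the tumours had equal proteasome mRNA, and in bulk tissue fewer cells of a type and less RNA per cell cannot be told apart.

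**Figure D1:**
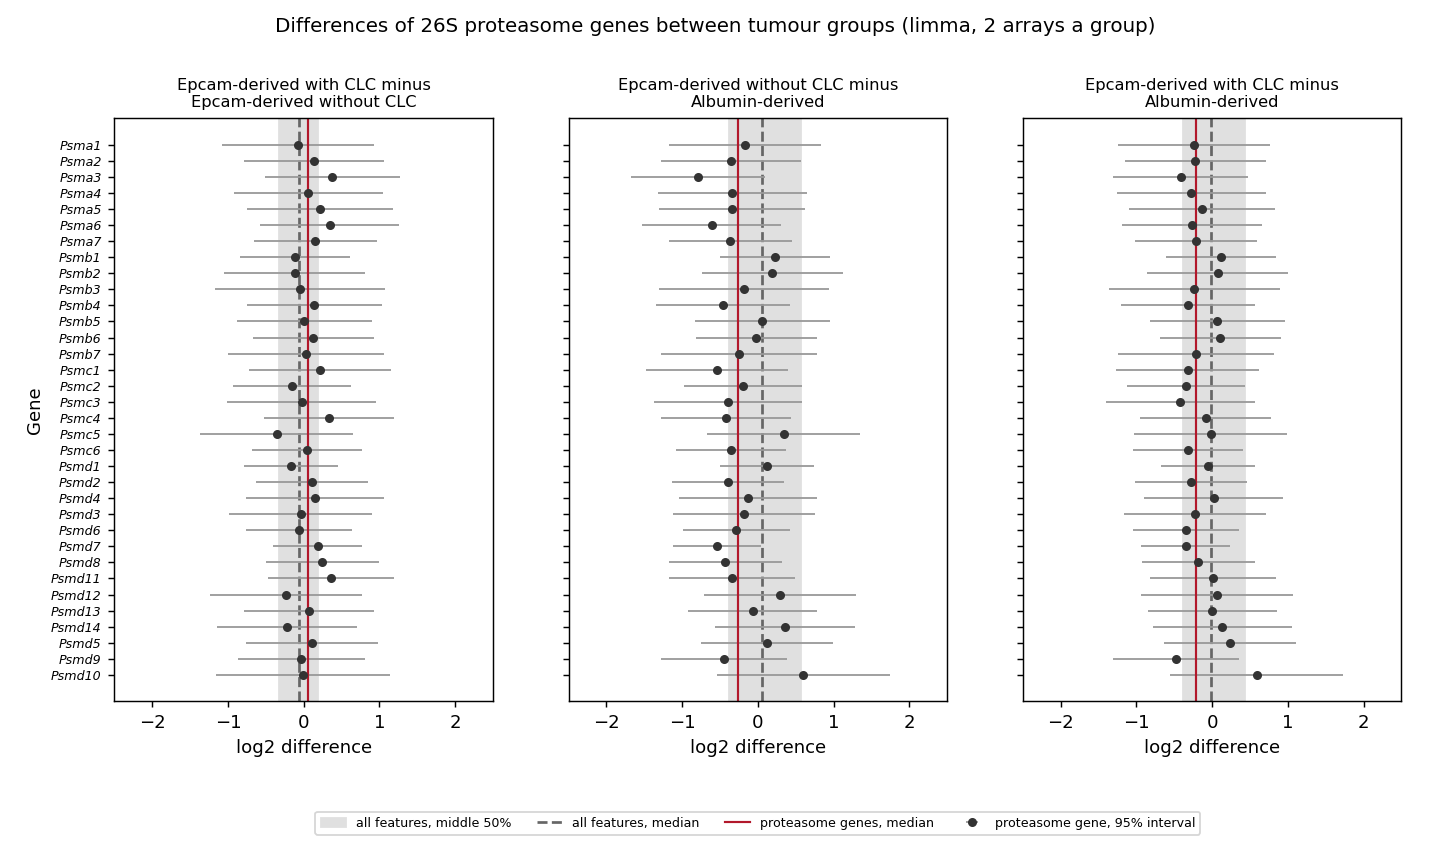
Log2 difference of each of the 34 proteasome genes (rows) in the 3 comparisons (panels, x axis in log2 units), with points for limma estimates from 2 arrays a group and bars for 95% intervals. The red line is the members' median (0.05, -0.27 and -0.22), the dashed line the median of all features (-0.06, 0.06 and -0.01) and the grey band the middle 50% of all features. All 34 intervals cross 0 in each panel, no member passed the test, and the last 2 medians turn positive after quantile normalization (0.03 and 0.09). They are also positive with the authors' scaling (0.04 and 0.10), which moves all features alike.

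Replicate 1 of Epcam-derived HCC without CLC held the lowest signal of the 6 arrays for 23 of 34 members, where 16% of all features had their lowest signal. Replicate 2 of the same group held the highest signal for 18 of 34 members, where 18.1% of all features had their highest. Replicate 2 minus replicate 1 was a median of 0.67 log2 units over the members of this group, and 31 of 34 members were higher on replicate 2, beside 48% of all features. The largest such gap was 1.23 for Psmb3, a beta ring subunit, and the lowest was -0.16 for Psmd8 of the lid. In Epcam-derived HCC with CLC the median gap was -0.06 and 11 of 34 members were higher on replicate 2 (51.7% of all features). In Albumin-derived HCC the median gap was -0.20 and 6 of 34 were higher on replicate 2 (49.6%).

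The gap within Epcam-derived HCC without CLC was larger than the difference from Epcam-derived HCC with CLC for 28 of 34 members. It was larger than the difference from Albumin-derived HCC for 27 of 34. Median deviations of the members from their 6-array means were -0.01 and -0.08 in Epcam-derived HCC with CLC, -0.40 and 0.29 in Epcam-derived HCC without CLC, and 0.23 and 0.04 in Albumin-derived HCC. The array with the lowest members had the highest summed signal of 3 measured erythroid markers, which was 602 and 80.1 in Epcam-derived HCC with CLC, 724 and 75.8 in Epcam-derived HCC without CLC, and 209 and 138 in Albumin-derived HCC, in units of each array's 75th percentile. It also had the lowest sum of 4 cell cycle markers, which was 2.02 and 5.50 in Epcam-derived HCC with CLC, 1.07 and 4.11 in Epcam-derived HCC without CLC, and 4.95 and 2.12 in Albumin-derived HCC. The sums of T and NK (45.7), B and plasma (1.29) and stellate and fibroblast markers (94.3) were also the highest of the 6 on this array. Epcam-derived HCC with CLC replicate 1 had nearly as high an erythroid sum but members close to their means. The part of any of these cells in the members' signal was not tested.

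**Figure D2:**
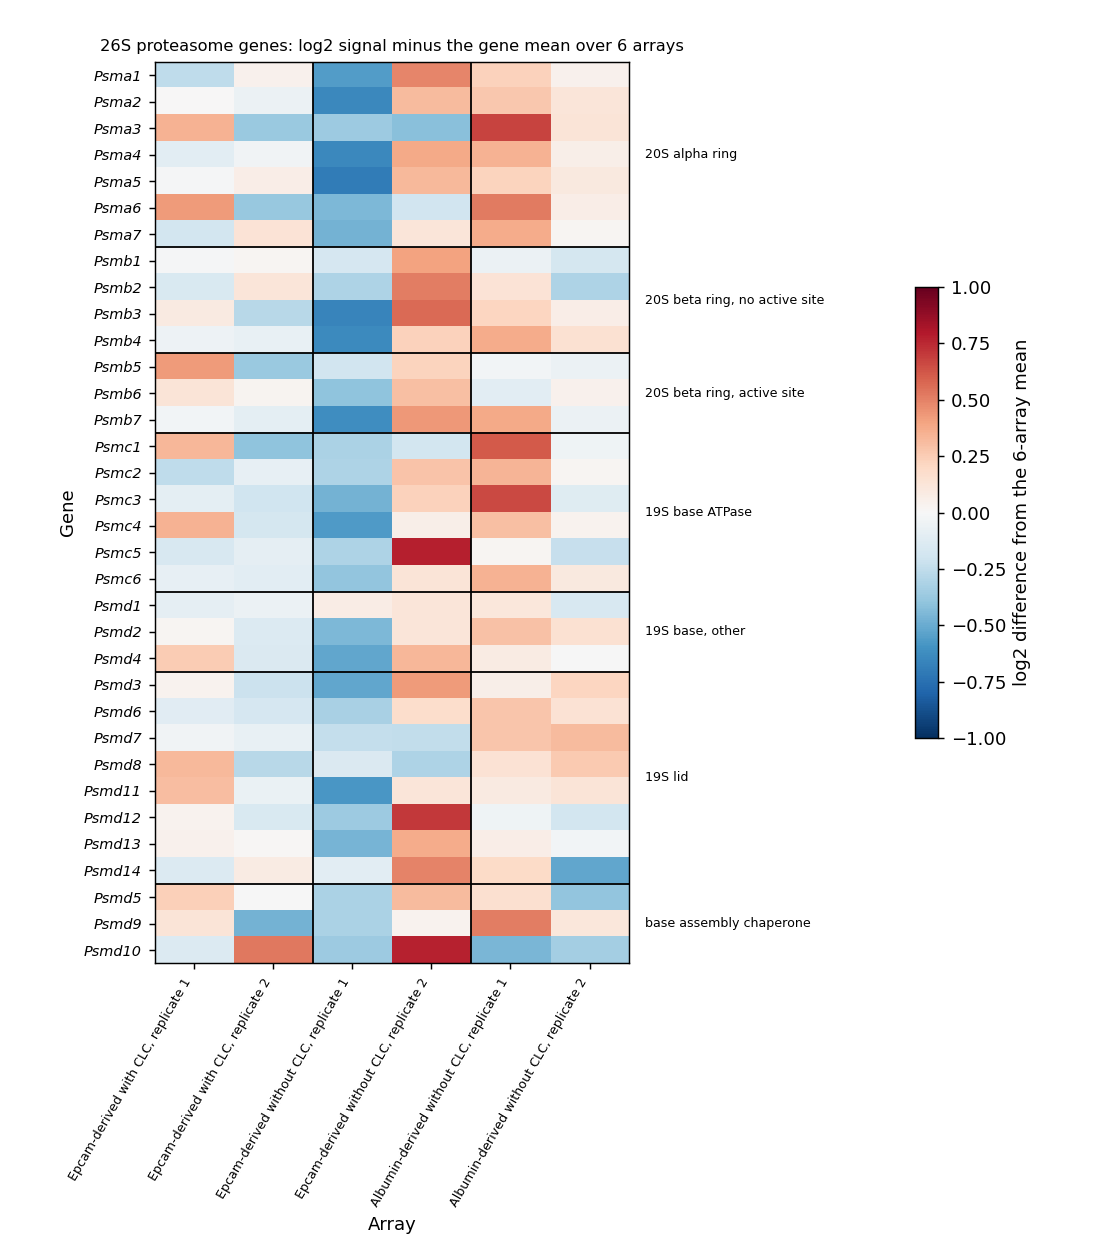
Log2 signal of the 34 proteasome genes (rows, grouped by role) on the 6 arrays (columns), each gene centred on its mean over the 6 arrays, with blue below and red above the mean. The column of Epcam-derived HCC without CLC replicate 1 is mostly blue (median deviation -0.40) and its replicate 2 mostly red (0.29), while the 2 arrays of Epcam-derived HCC with CLC stay near white (-0.01 and -0.08) and those of Albumin-derived HCC lie at 0.23 and 0.04.

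Across the 6 arrays the members had a somewhat smaller range than all features, some of which were dim on part of the arrays. Between replicates of Epcam-derived HCC without CLC the median absolute gap was larger for members, 0.67 against 0.38 for all features. It was smaller with CLC (0.20 against 0.39) and in Albumin-derived HCC (0.20 against 0.34). The distance between the highest and lowest array was a median of 0.93 log2 units per member, a 1.90-fold range, against 1.13 over all features. It exceeded 2-fold for 13 of 34 members (38.2%), beside 57.7% of all features. The smallest range was 0.28 for Psmd1, the large scaffold of the base, and the largest was 1.23 for Psmb3, a 2.34-fold range.

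The active sites of the constitutive core lie on 3 beta subunits. Psmb5, which carries the chymotrypsin-like site, measured 4.61 and 3.80 in Epcam-derived HCC with CLC, 3.99 and 4.40 in Epcam-derived HCC without CLC, and 4.15 and 4.12 in Albumin-derived HCC. Psmb6, which carries the caspase-like site, measured 6.14 and 6.04 in Epcam-derived HCC with CLC, 5.61 and 6.32 in Epcam-derived HCC without CLC, and 5.91 and 6.06 in Albumin-derived HCC. Psmb7, which carries the trypsin-like site, measured 3.01 and 2.94 in Epcam-derived HCC with CLC, 2.42 and 3.47 in Epcam-derived HCC without CLC, and 3.42 and 2.98 in Albumin-derived HCC. For all 3 genes the groups overlapped in every comparison, and the arrays of Epcam-derived HCC without CLC bracketed both Albumin-derived arrays. Psmb5 differed by 0.06 ± 0.36 (log2, SE, n = 2 a group) between Epcam-derived HCC without CLC and Albumin-derived HCC, with a 95% interval of -0.83 to 0.95 and a limma adjusted p of 0.941. Its difference between Epcam-derived HCC with CLC and Albumin-derived HCC was 0.07 ± 0.36 (adjusted p = 0.945). For Psmb6 those differences were -0.02 and 0.11, and for Psmb7 -0.25 and -0.22. A second Psmb6 probe gave -0.44 and -0.18, the latter of opposite sign to the chosen probe.

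Psmb5 and Psmb6 both hold the core of an antioxidant response element, the motif bound by NRF1 and NRF2, in the window of 250 bases before to 50 after the RefSeq gene start. They are shown with Srxn1, an NRF2 target whose signal differed more between the groups, so that the shared motif can be seen. The window of Nqo1, the target with the largest difference, holds no match, and Gclc and Hmox1 were without a window. Sequence outside the windows was not searched, so a window without a match does not show that a gene lacks the motif. Of 6 NRF2 targets 4 had a window, and 3 of those, Gclm, Txnrd1 and Srxn1, held the motif. Capitals mark TGACNNNGC or its reverse complement. The sequences are RefSeq's on GRCm38.p6, read 5′ to 3′ on the gene's strand, from chr14:54617946-54618245 (minus strand) for Psmb5, chr11:70525107-70525406 (plus strand) for Psmb6 and chr2:152105274-152105573 (plus strand) for Srxn1.
Psmb5: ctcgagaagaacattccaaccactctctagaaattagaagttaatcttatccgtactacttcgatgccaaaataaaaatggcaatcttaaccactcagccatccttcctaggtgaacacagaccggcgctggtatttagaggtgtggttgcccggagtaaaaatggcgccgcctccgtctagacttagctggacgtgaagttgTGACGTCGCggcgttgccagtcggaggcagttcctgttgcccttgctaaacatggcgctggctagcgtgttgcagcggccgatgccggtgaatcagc
Psmb6: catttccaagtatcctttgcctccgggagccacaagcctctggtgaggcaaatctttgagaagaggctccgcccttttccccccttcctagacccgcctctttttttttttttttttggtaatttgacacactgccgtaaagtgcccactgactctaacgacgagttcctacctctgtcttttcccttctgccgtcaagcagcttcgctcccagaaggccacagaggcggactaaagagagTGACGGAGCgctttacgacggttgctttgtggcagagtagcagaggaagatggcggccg
Srxn1: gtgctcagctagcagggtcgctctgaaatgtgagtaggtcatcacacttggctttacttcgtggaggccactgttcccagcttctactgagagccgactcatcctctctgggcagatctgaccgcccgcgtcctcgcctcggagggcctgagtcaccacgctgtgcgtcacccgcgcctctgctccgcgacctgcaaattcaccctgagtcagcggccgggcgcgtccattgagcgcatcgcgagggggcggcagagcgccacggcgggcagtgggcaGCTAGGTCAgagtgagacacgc

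The match began 47 bases before the gene start in Psmb5, 9 bases before it in Psmb6 and 28 bases after it in Srxn1. A window was at hand for 28 of the 34 members, and 5 of those 28 (17.9%) held the motif on either strand, namely Psmb5, Psmb6, Psmc6, Psmd9 and Psmd12. Among all 27025 genes with a window 14% held it, and among all 32851 windows 12.4%. The letters TGAC also begin the sites of AP-1 and CREB factors, so a match describes the sequence and does not mark a bound site. Members without a window were Psmb1, Psmb2, Psmb7, Psmc3, Psmd3 and Psmd7.

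Among the 7 alpha ring genes, all 7 had values below Albumin-derived HCC in both Epcam-derived groups, with medians of -0.24 in those with CLC and -0.36 in those without, but after quantile normalization 4 and 5 of the 7 were lower. None passed the test. Psma3 measured 5.27 and 4.55 in Epcam-derived HCC with CLC, 4.56 and 4.50 in Epcam-derived HCC without CLC, and 5.60 and 5.05 in Albumin-derived HCC. Both arrays of Epcam-derived HCC without CLC lay below both Albumin-derived arrays, beside 24.8% of all features. This was the lowest member difference, -0.79 ± 0.36 (95% interval, -1.68 to 0.10), a 1.73-fold decrease by value with a limma adjusted p of 0.287, and it was -0.08 with slide as a block. Psma6 measured 4.84 and 4.04 in Epcam-derived HCC with CLC, 3.97 and 4.23 in Epcam-derived HCC without CLC, and 4.93 and 4.48 in Albumin-derived HCC. Its arrays in Epcam-derived HCC without CLC also lay below both Albumin-derived arrays, by -0.61 ± 0.37 on average (adjusted p = 0.401, limma). Psma3 and Psma6 also had 2 of the 3 highest differences between Epcam-derived HCC with CLC and without CLC, 0.38 and 0.34 (adjusted p = 0.999 for each, limma), with overlapping arrays. Both were high on slide 1 and low on slide 2 in Epcam-derived HCC with CLC. The other 5 alpha genes differed from Albumin-derived HCC by between -0.37 and -0.17 in Epcam-derived HCC without CLC and between -0.27 and -0.13 in Epcam-derived HCC with CLC.

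The 4 beta subunits without an active site, Psmb1 to Psmb4, were divided. In each comparison with Albumin-derived HCC, 2 were higher and 2 lower, but 4 and 3 were higher after quantile normalization, with CLC and without. Their differences ran from -0.47 to 0.23 in Epcam-derived HCC without CLC and from -0.32 to 0.12 in Epcam-derived HCC with CLC, and none passed the test. Psmb1 was 1 of 2 members whose arrays in Epcam-derived HCC with CLC all lay above Albumin-derived HCC, beside 23.8% of all features, at 0.12 ± 0.29.

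The 6 ATPases of the base, Psmc1 to Psmc6, thread substrates into the core. Compared with Albumin-derived HCC, 6 of 6 had lower values in Epcam-derived HCC with CLC (median -0.32) and 5 of 6 in Epcam-derived HCC without CLC (median -0.37), but after quantile normalization 2 and 3 of 6 were lower. None passed the test. Psmc5 measured 3.29 and 3.36 in Epcam-derived HCC with CLC, 3.14 and 4.22 in Epcam-derived HCC without CLC, and 3.47 and 3.22 in Albumin-derived HCC. Replicate 2 of Epcam-derived HCC without CLC stood above the other 5 arrays and replicate 1 below them. Its difference was the lowest between the Epcam-derived groups, -0.36 ± 0.41, and 1 of the 3 highest between Epcam-derived HCC without CLC and Albumin-derived HCC, 0.34 ± 0.41 (adjusted p = 0.999 and 0.668, limma). Psmc3 measured 5.95 and 5.85 in Epcam-derived HCC with CLC, 5.58 and 6.28 in Epcam-derived HCC without CLC, and 6.71 and 5.93 in Albumin-derived HCC. The 2 Albumin-derived arrays were 0.78 apart, and the difference of Epcam-derived HCC with CLC from them was -0.42 ± 0.39. A second Psmc3 probe gave 0.21 where the chosen one gave -0.03 between the Epcam-derived groups, the largest such disagreement there. The 20 other probes of the 15 members with several probes had the same sign as the chosen probe for 17 between the Epcam-derived groups. Against Albumin-derived HCC they had the same sign for 16 in Epcam-derived HCC without CLC and for 17 in Epcam-derived HCC with CLC. A second Psmc4 probe had the opposite sign in both, at 0.03 and 0.18 where the chosen one gave -0.42 and -0.09 in the same order.

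The base also holds Psmd1 and Psmd2, which receive ubiquitin-like shuttle proteins, and the ubiquitin receptor Psmd4. Psmd1 was the only member whose arrays were all lower in Epcam-derived HCC with CLC than in Epcam-derived HCC without CLC, beside 19.8% of all features, and its difference was -0.17 ± 0.25. Against Albumin-derived HCC the 3 genes ranged from -0.39 to 0.12 in Epcam-derived HCC without CLC and from -0.28 to 0.02 in Epcam-derived HCC with CLC. None passed the test.

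The lid has 8 members here, among them Psmd14, the metalloprotease that cuts off the ubiquitin chain. Psmd14 measured 3.35 and 3.57 in Epcam-derived HCC with CLC, 3.38 and 3.99 in Epcam-derived HCC without CLC, and 3.68 and 2.97 in Albumin-derived HCC. The groups overlapped in every comparison, and the 2 Albumin-derived arrays stood further apart than any 2 group means. Its differences were -0.22 ± 0.37 between the Epcam-derived groups, 0.36 ± 0.37 between Epcam-derived HCC without CLC and Albumin-derived HCC, and 0.14 ± 0.37 between Epcam-derived HCC with CLC and Albumin-derived HCC.

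Psmd7, the lid partner with which Psmd14 forms a dimer, measured 2.57 and 2.53 in Epcam-derived HCC with CLC, 2.37 and 2.36 in Epcam-derived HCC without CLC, and 2.88 and 2.93 in Albumin-derived HCC. The groups did not overlap in any comparison, beside 24.8% (without CLC) and 27% (with CLC) of all features wholly below Albumin-derived HCC. The replicates of each group lay close together for Psmd7. It had the lowest adjusted p of the members in both comparisons with Albumin-derived HCC. Its difference was -0.54 ± 0.24 in Epcam-derived HCC without CLC (95% interval, -1.13 to 0.05, adjusted p = 0.277, limma) and -0.35 ± 0.24 in Epcam-derived HCC with CLC (-0.94 to 0.23, adjusted p = 0.520, limma). Over 20 alternative settings the first stayed negative, between -0.63 and -0.23, with adjusted p between 0.221 and 0.919. The second was between -0.41 and -0.03. Psmd7 was also the only member whose arrays in Epcam-derived HCC with CLC all lay above Epcam-derived HCC without CLC, by 0.19, beside 10.3% of all features.

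Psmd11 and Psmd12 are scaffold subunits of the lid. Psmd11 measured 2.44 and 2.06 in Epcam-derived HCC with CLC, 1.54 and 2.25 in Epcam-derived HCC without CLC, and 2.22 and 2.25 in Albumin-derived HCC. Replicate 1 of Epcam-derived HCC without CLC lay below the other arrays, and the difference between the Epcam-derived groups was 0.36 ± 0.33. Psmd12 measured 4.29 and 4.10 in Epcam-derived HCC with CLC, 3.89 and 4.96 in Epcam-derived HCC without CLC, and 4.21 and 4.07 in Albumin-derived HCC. Here replicate 2 of Epcam-derived HCC without CLC lay above the other arrays, and the difference between the Epcam-derived groups was -0.23 ± 0.40. Across all 8 lid genes the differences from Albumin-derived HCC ran from -0.54 to 0.36 in Epcam-derived HCC without CLC, with 6 lower, and from -0.35 to 0.14 in Epcam-derived HCC with CLC, with 4 lower. After quantile normalization 4 and 3 were lower in that order. None passed the test.

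Psmd5, Psmd9 and Psmd10 are chaperones that assemble the base and leave the finished particle. Psmd10, also called gankyrin and known as an oncoprotein of human liver cancer, measured 1.80 and 2.47 in Epcam-derived HCC with CLC, 1.58 and 2.71 in Epcam-derived HCC without CLC, and 1.49 and 1.60 in Albumin-derived HCC. Replicate 2 of each Epcam-derived group was high, and both of those arrays were on slide 2, as was the low replicate 1 of Epcam-derived HCC without CLC. Psmd10 had the highest member difference from Albumin-derived HCC, at 0.60 ± 0.46 in Epcam-derived HCC without CLC and 0.59 ± 0.46 in Epcam-derived HCC with CLC (adjusted p = 0.496 and 0.577, limma). With slide as a block these became -0.07 and 0.26. Psmd9 measured 0.52 and -0.08 in Epcam-derived HCC with CLC, 0.07 and 0.42 in Epcam-derived HCC without CLC, and 0.90 and 0.50 in Albumin-derived HCC. It was the lowest member of Epcam-derived HCC with CLC against Albumin-derived HCC, at -0.48 ± 0.34, with overlapping arrays. Psmd5 measured 1.32 and 1.08 in Epcam-derived HCC with CLC, 0.77 and 1.40 in Epcam-derived HCC without CLC, and 1.24 and 0.69 in Albumin-derived HCC. Its difference from Albumin-derived HCC was 0.12 in Epcam-derived HCC without CLC and 0.23 in Epcam-derived HCC with CLC, each with an SE of 0.35.

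Counted over all members, 7 of 34 had both arrays of Epcam-derived HCC without CLC below both Albumin-derived arrays and 0 above, beside 24.8% and 30.4% of all features. They were Psma3, Psma6, Psmc1, Psmd2, Psmd7, Psmd8 and Psmd9. In Epcam-derived HCC with CLC 11 of 34 lay wholly below Albumin-derived HCC and 2, Psmb1 and Psmd10, wholly above, beside 27% and 23.8% of all features. The shares below, 20.6% and 32.4%, were near those of all features. The shares above, 0 and 2 of 34 members, were smaller than those of all features.

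None of the 4 measured immunoproteasome genes passed the test, but the inducible subunits Psmb8 and Psmb9 had larger differences from Albumin-derived HCC by value than any of the 34 members. Psmb8, the inducible counterpart of Psmb5, measured 1.70 and 3.15 in Epcam-derived HCC with CLC, 2.97 and 3.07 in Epcam-derived HCC without CLC, and 1.08 and 1.32 in Albumin-derived HCC. Psmb9, the counterpart of Psmb6, measured 2.17 and 3.78 in Epcam-derived HCC with CLC, 2.86 and 3.76 in Epcam-derived HCC without CLC, and 1.84 and 1.51 in Albumin-derived HCC. Every Epcam-derived array was above both Albumin-derived arrays for both genes, and the 3 arrays of slide 2 were the highest. In Epcam-derived HCC without CLC 30.4% of all features lay wholly above Albumin-derived HCC, and 23.8% did in Epcam-derived HCC with CLC. The Psmb8 difference from Albumin-derived HCC was 1.82 ± 0.50 in Epcam-derived HCC without CLC (3.53-fold, adjusted p = 0.157, limma) and 1.23 ± 0.50 in Epcam-derived HCC with CLC (2.34-fold, adjusted p = 0.315, limma). For Psmb9 it was 1.64 ± 0.61 (3.11-fold, adjusted p = 0.225, limma) in Epcam-derived HCC without CLC and 1.30 ± 0.61 (2.47-fold, adjusted p = 0.367, limma) in Epcam-derived HCC with CLC.

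Slide moved with these values. With slide as a block, the differences between Epcam-derived HCC without CLC and Albumin-derived HCC were 0.37 for Psmb8 and 0.04 for Psmb9. These groups shared no slide, and the slide term rested on the 2 arrays with CLC alone. Within slide 1, the array of Epcam-derived HCC with CLC exceeded the mean of the Albumin-derived arrays by 0.50 for each gene. Within slide 2, the array of Epcam-derived HCC with CLC exceeded the mean of Epcam-derived HCC without CLC by 0.13 for Psmb8 and 0.47 for Psmb9. The summed signal of 8 interferon response genes was 65.6 and 166 in Epcam-derived HCC with CLC, 45.2 and 125 in Epcam-derived HCC without CLC, and 50.2 and 29.7 in Albumin-derived HCC. It was highest on the replicate 2 arrays of both Epcam-derived groups, but on replicate 1 of Epcam-derived HCC without CLC, where Psmb8 was high, it was below the first Albumin-derived array. The summed signal of 6 macrophage and Kupffer markers was 79.8 and 57.0 in Epcam-derived HCC with CLC, 39.8 and 54.4 in Epcam-derived HCC without CLC, and 21.7 and 37.4 in Albumin-derived HCC. It was also higher on every Epcam-derived array than on either Albumin-derived array. The part of interferon or of immune cells was not tested.

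Psmb10, the counterpart of Psmb7, measured 4.44 and 5.05 in Epcam-derived HCC with CLC, 4.56 and 4.73 in Epcam-derived HCC without CLC, and 4.24 and 4.71 in Albumin-derived HCC, with overlapping groups. Psme1, a subunit of the PA28 activator that interferon induces, measured 5.04 and 4.93 in Epcam-derived HCC with CLC, 4.38 and 5.29 in Epcam-derived HCC without CLC, and 4.36 and 4.27 in Albumin-derived HCC. Its Epcam-derived arrays all lay above Albumin-derived HCC, by 0.51 ± 0.36 in those without CLC and 0.66 ± 0.36 in those with CLC (adjusted p = 0.460 and 0.437, limma). Epcam-derived arrays lay wholly above Albumin-derived HCC for 30.4% of all features without CLC and 23.8% with CLC. No probe was matched to Psme2.

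**Figure D3:**
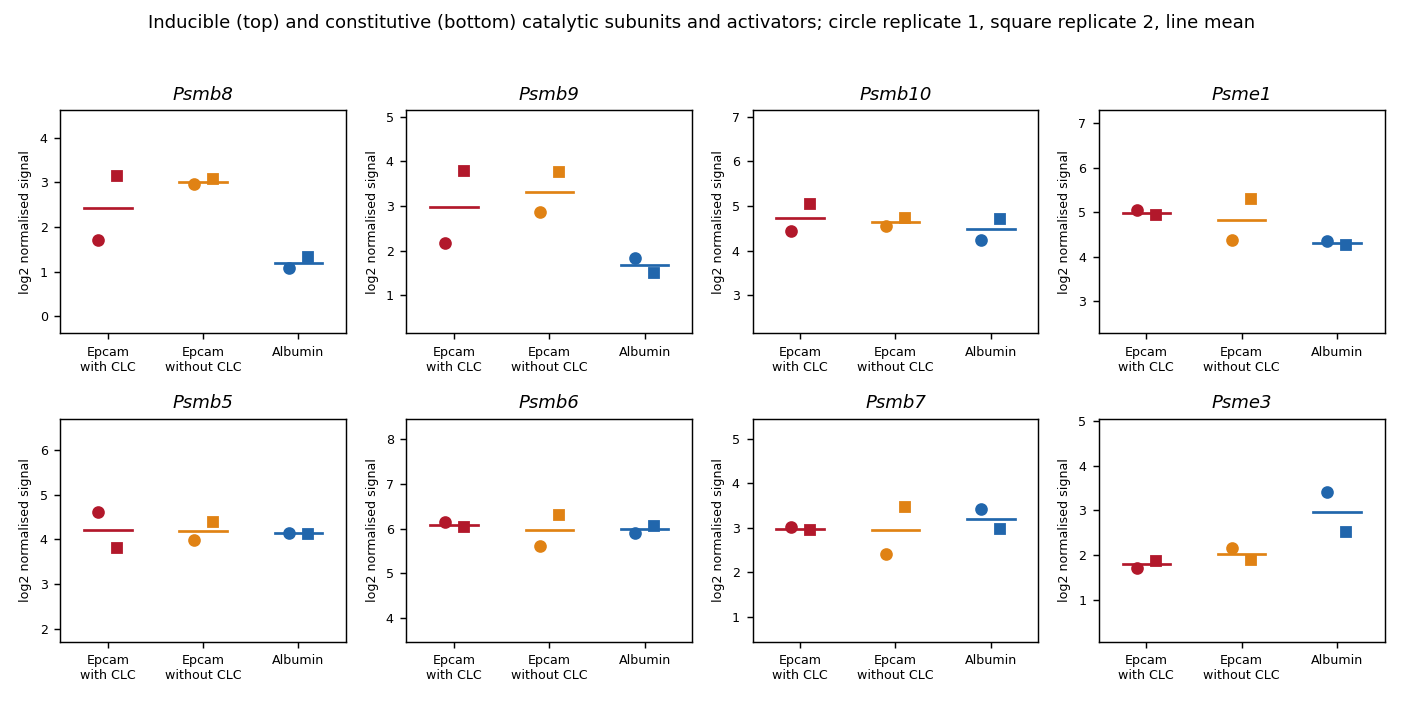
Log2 signal relative to the array's 75th percentile (y axis) of inducible subunits and the Psme1 activator (top row) and of constitutive catalytic subunits and the Psme3 activator (bottom row) in the 3 tumour groups, with 1 point an array and a line at the mean of 2. For Psmb8 the Epcam-derived arrays lie between 1.70 and 3.15 and the Albumin-derived arrays at 1.08 and 1.32, while the groups overlap for Psmb5, Psmb6 and Psmb7. Levels of different genes come from different probes and are not comparable.

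Among these genes the element bound by interferon regulatory factors, searched on both strands as GAAA repeated after a gap of 2 bases, was found in the promoter window of Psme1 alone, which is shown for that reason. The motif was chosen after the values were seen. Capitals mark its reverse complement, and the window lies at chr14:55578244-55578543 (plus strand) of GRCm38.p6.
Psme1: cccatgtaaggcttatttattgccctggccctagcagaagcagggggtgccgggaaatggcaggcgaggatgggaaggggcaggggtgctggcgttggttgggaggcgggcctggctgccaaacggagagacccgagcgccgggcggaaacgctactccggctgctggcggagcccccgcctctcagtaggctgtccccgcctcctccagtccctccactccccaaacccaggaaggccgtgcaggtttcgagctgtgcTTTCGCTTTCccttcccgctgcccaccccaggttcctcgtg
The match began 9 bases after the gene start. It was present in 1 of 5 immunoproteasome genes and in 3 of 28 members (Psmb3, Psmd4 and Psmd9), beside 3.99% of all genes. Psmd9 held both motifs, without overlap.

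Of 5 measured genes for other regulators of the core, none passed the test. Psme3, the nuclear activator PA28gamma, measured 1.70 and 1.87 in Epcam-derived HCC with CLC, 2.16 and 1.88 in Epcam-derived HCC without CLC, and 3.40 and 2.52 in Albumin-derived HCC. All 4 Epcam-derived arrays lay below both Albumin-derived arrays. Taken by group, 27% of all features did so with CLC and 24.8% without. The differences were -1.17 ± 0.37 in Epcam-derived HCC with CLC (95% interval, -2.09 to -0.26, adjusted p = 0.233, limma) and -0.94 ± 0.37 in Epcam-derived HCC without CLC (-1.86 to -0.03, adjusted p = 0.242, limma). Psme4, the activator PA200, differed from Albumin-derived HCC by 0.11 in Epcam-derived HCC with CLC and 0.04 in Epcam-derived HCC without CLC. Psmf1, the inhibitor PI31, differed by -0.11 and -0.16 in the same order, and Ecpas, a scaffold of the particle, by 0.14 and 0.13. Akirin2 was measured too, and Psmb11, the subunit of the thymus, did not pass the filter on dim probes.

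All 5 measured chaperones of core assembly had values below Albumin-derived HCC in both Epcam-derived groups, with medians of -0.45 in those with CLC and -0.26 in those without, but after quantile normalization 4 and 3 were lower. None passed the test. Psmg2 measured 1.39 and 1.87 in Epcam-derived HCC with CLC, 2.09 and 2.11 in Epcam-derived HCC without CLC, and 2.84 and 2.68 in Albumin-derived HCC. For Psmg2 the 3 groups did not overlap, beside 27% (with CLC) and 24.8% (without CLC) of all features wholly below Albumin-derived HCC. Its difference was -1.14 ± 0.28 in Epcam-derived HCC with CLC (95% interval, -1.83 to -0.44, a 2.20-fold decrease by value, adjusted p = 0.166, limma) and -0.66 ± 0.28 in Epcam-derived HCC without CLC (adjusted p = 0.266, limma). Over the 20 alternative settings the first of these lay between -1.37 and -0.82. Its partner Psmg1 differed by -0.51 in Epcam-derived HCC with CLC and -0.14 in Epcam-derived HCC without CLC, Psmg3 by -0.09 and -0.26, and Psmg4 by -0.45 and -0.67 in the same order. No probe was matched to Paaf1.

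The genes around the particle showed no called change either. Of 5 further components and deubiquitinases 0 passed. The ubiquitin receptor Adrm1 differed from Albumin-derived HCC by 0.25 in Epcam-derived HCC with CLC and 0.32 in Epcam-derived HCC without CLC, Sem1 by -0.38 and -0.47, Uchl5 by -0.25 and -0.18, and Usp14 by -0.21 and -0.33 in the same order. Of 6 ubiquitin and E1 genes 0 passed, and all 6 had values below Albumin-derived HCC in both groups, but after quantile normalization 3 did with CLC and 4 without. Of those encoding ubiquitin, Ubb differed by -0.15 in Epcam-derived HCC with CLC and -0.19 in Epcam-derived HCC without CLC, and Rps27a by -0.79 and -0.47 in the same order. Near-identical copies of ubiquitin sequence make these probes uncertain.

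Of 8 shuttle and p97 genes, which bring substrates to the particle, 0 passed. Rad23b differed from Albumin-derived HCC by 0.04 in Epcam-derived HCC with CLC and 0.16 in Epcam-derived HCC without CLC, Ubqln1 by 0.09 and -0.22, and Ubqln2 by -0.54 and -0.50 in the same order. Of 8 genes for NRF1, NRF2, their partners and NRF1 processing, 0 passed. Nfe2l1, which encodes NRF1, differed by -0.34 in Epcam-derived HCC with CLC and -0.60 in Epcam-derived HCC without CLC. Nfe2l2, which encodes NRF2, differed by 0.12 and 0.07, its inhibitor Keap1 by -0.35 and -0.62, and Ddi2, the protease that cleaves NRF1, by -0.52 and -0.38 in the same order.

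Of 6 NRF2 targets 0 passed the test, but 4 of them, Nqo1, Gclc, Srxn1 and Txnrd1, had larger differences from Albumin-derived HCC by value than any of the 34 members. Of the 6, 5 were higher by value in both Epcam-derived groups, also after quantile normalization. Nqo1, a quinone reductase, measured 2.11 and 2.20 in Epcam-derived HCC with CLC, 2.03 and 2.94 in Epcam-derived HCC without CLC, and 0.08 and -0.93 in Albumin-derived HCC. Gclc is the catalytic subunit of an enzyme of glutathione synthesis. It measured 6.49 and 6.64 in Epcam-derived HCC with CLC, 5.96 and 7.41 in Epcam-derived HCC without CLC, and 4.61 and 3.89 in Albumin-derived HCC. Srxn1, sulfiredoxin, measured 6.34 and 6.77 in Epcam-derived HCC with CLC, 6.14 and 7.05 in Epcam-derived HCC without CLC, and 4.90 and 4.20 in Albumin-derived HCC. For Nqo1, Gclc and Srxn1 every Epcam-derived array lay above both Albumin-derived arrays. Taken by group, 23.8% of all features did so with CLC and 30.4% without. Against Albumin-derived HCC Nqo1 differed by 2.58 ± 0.47 in Epcam-derived HCC with CLC (5.99-fold, adjusted p = 0.116, limma) and by 2.91 ± 0.47 in Epcam-derived HCC without CLC (7.53-fold, adjusted p = 0.0796, limma). With slide as a block its differences were 2.53 and 2.82. Gclc differed by 2.31 and 2.43, and Srxn1 by 2.00 and 2.04, in the same order. The other targets differed less, by 0.46 and 0.48 for Gclm, 1.22 and 0.83 for Txnrd1 and -0.11 and -0.30 for Hmox1. Beside these, the 5 motif-holding members were of both signs. In Epcam-derived HCC with CLC they differed from Albumin-derived HCC by 0.07 for Psmb5, 0.11 for Psmb6, -0.32 for Psmc6, -0.48 for Psmd9 and 0.06 for Psmd12. In Epcam-derived HCC without CLC those differences were 0.06 for Psmb5, -0.02 for Psmb6, -0.35 for Psmc6, -0.45 for Psmd9 and 0.29 for Psmd12. The second Psmb6 probe gave -0.18 with CLC and -0.44 without. Members and NRF2 targets were not tested against each other.

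**Figure D4:**
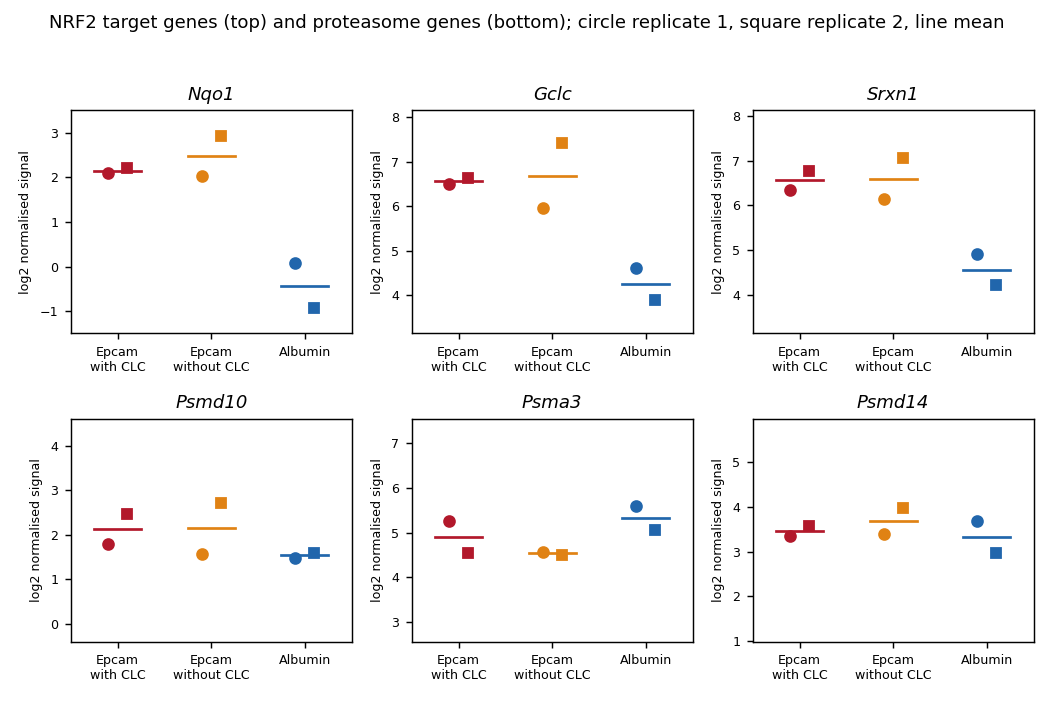
Log2 signal relative to the array's 75th percentile (y axis) of 3 NRF2 targets (top row) and 3 proteasome genes (bottom row) in the 3 tumour groups, with 1 point an array and a line at the mean of 2. Nqo1 lies between 2.03 and 2.94 on the 4 Epcam-derived arrays and at 0.08 and -0.93 on the Albumin-derived arrays. Psmd10 reaches 2.47 and 2.71 on 2 Epcam-derived arrays, Psma3 is highest at 5.60 in Albumin-derived HCC, and Psmd14 overlaps in all groups.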

How the data were processed

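The deposited tables hold 1-colour spot intensity after local background subtraction and trend removal, where a positive surrogate stands in for low values. The extraction software was, per the file headers, version 11.5.1.1 of Agilent Feature Extraction. Other columns of the deposited tables include the median spot and background signals and yes or no marks per spot (well above background, outlier). The authors also deposited a table of processed intensity, which equalled that signal times 1 factor per array. Its column medians were 73.9 and 78.0 in Epcam-derived HCC with CLC, 80.0 and 74.1 in Epcam-derived HCC without CLC, and 61.9 and 55.0 in Albumin-derived HCC. It is linear, not centred and of the same direction, and what set the factors is unknown.

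Control and outlier spots were left out, and each array's 75th percentile was subtracted from the log2 signal. Spots of a probe were averaged, and a probe was kept where some group had it well above background on each of its arrays. Accessions were named through RefSeq on GRCm38.p6, and the brightest probe stood for a symbol. The features were fitted with limma 3.58.1 in R 4.3.3, 1 coefficient per group, with Benjamini-Hochberg adjustment over all features at 0.05; the procedure was tested on simulated data. The 6 arrays leave 3 residual degrees of freedom, which limits precision.

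Members with values on every array were the active-site subunits, Psmd14 and the 3 highest and 3 lowest differences of each comparison, and of each related list the first 4 measured, of which some are not reported here. The members and lists were chosen with earlier results of these data known. For normexp the median spot signal was used, because the mean was not among the columns used here. Other scalings, filters, probe rules, blocks and sets of arrays were tried as alternatives.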

Additional observations from a re-analysis of the deposited data

How the results depend on the processing

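With 2 arrays a group and background that left 52.0% to 64.6% of probes measurable, small differences could not be resolved. In each comparison 0 of 34 members passed the test under each of the 20 alternatives, and between the Epcam-derived groups 0 features passed under each. For Epcam-derived HCC without CLC against Albumin-derived HCC, 67 features passed, against 135 with normexp, 107 with quantile normalization, 106 with median centring, 129 with the authors' scaling, 1 without the filter on dim probes, 32 with probes measured on all 6 arrays, 110 with averaged probes, 40 with named features, 16 with only those groups and 0 with slide as a block. For Epcam-derived HCC with CLC against Albumin-derived HCC, 17 passed, against 66 with normexp, 66 with quantile normalization, 35 with median centring, 1 without the filter, 39 with an intensity trend, 0 with only those groups, 0 within slide 1 and 0 with the slide block. Whether replicate numbers pair the samples is not known. Same-numbered deviations correlated over features at 0.232 between the Epcam-derived groups. Against Albumin-derived HCC they did so at -0.159 for Epcam-derived HCC without CLC and 0.0619 for Epcam-derived HCC with CLC. With 1 difference between replicates per group, these values cannot settle the pairing. With the replicate number as a block, 11 features passed for Epcam-derived HCC without CLC against Albumin-derived HCC, 0 for Epcam-derived HCC with CLC against Albumin-derived HCC and 0 between the Epcam-derived groups. A crossed pairing, chosen after seeing the data, gave 131 for the first of these.

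Leaving out 1 array gave 0 to 16 features for Epcam-derived HCC without CLC against Albumin-derived HCC, 0 for Epcam-derived HCC with CLC against Albumin-derived HCC and 0 between the Epcam-derived groups. The members' median then ran from -0.61 to 0.15, from -0.26 to -0.03 and from -0.30 to 0.41 in that order. That median, -0.27 for Epcam-derived HCC without CLC against Albumin-derived HCC, was 0.0331 with quantile normalization, 0.0439 with the authors' scaling, which moved all features alike, and -0.0024 with slide as a block. For Epcam-derived HCC with CLC against Albumin-derived HCC it was -0.22, against 0.0947 with quantile normalization and 0.10 with the authors' scaling. Normexp moved the median of all features to -0.16 and -0.12 in these comparisons. The cause of these shifts was not tested. No slide held both Epcam-derived HCC without CLC and Albumin-derived HCC, so no value within a slide could be had for that comparison. The slide block took its slide term from the 2 arrays with CLC alone, and so cannot separate slide from tumour.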

Other observations

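Other cell types were followed through summed signals of marker genes, in units of each array's 75th percentile. The 5 bile duct and ductular markers summed to 59.8 and 108 in Epcam-derived HCC with CLC, 43.5 and 29.5 in Epcam-derived HCC without CLC, and 4.56 and 37.7 in Albumin-derived HCC. Spp1 alone made up most of each sum. It measured (log2) 5.88 and 6.73 with CLC, 5.41 and 4.81 in Epcam-derived HCC without CLC, and 1.99 and 5.20 in Albumin-derived HCC. Krt19, a keratin of bile duct cells, was named after its values were seen and was well above background on 5 of 6 arrays. It measured (log2) -1.59 and -1.37 with CLC, -4.21 and -3.87 in Epcam-derived HCC without CLC, and -4.94 and -3.52 in Albumin-derived HCC. Both arrays with CLC lay above the other 4, but the limma adjusted p was 0.999 between the Epcam-derived groups and 0.117 against Albumin-derived HCC. Between the Epcam-derived groups Epcam, Krt7 and Spp1 were also higher with CLC by value. Epcam and Krt7 were well above background on 4 arrays each. Sox9 went the other way by -0.54, with -1.24 and 0.22 with CLC and -0.45 and 0.50 in Epcam-derived HCC without CLC. The 6 hepatocyte markers summed to 3260 and 2273 in Epcam-derived HCC with CLC, 3004 and 2396 in Epcam-derived HCC without CLC, and 4929 and 4491 in Albumin-derived HCC, so that both Albumin-derived arrays were the highest.

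Among other immune lists, the 6 T and NK markers summed to 15.6 and 26.4 in Epcam-derived HCC with CLC, 45.7 and 29.1 in Epcam-derived HCC without CLC, and 36.8 and 20.4 in Albumin-derived HCC. Of 4 B and plasma markers 3 were measured, and summed to 0.725 and 0.755 with CLC, 1.29 and 0.319 without CLC, and 0.898 and 0.307 in Albumin-derived HCC. Of 3 neutrophil markers 2 were measured, at 4.07 and 2.54 with CLC, 2.52 and 1.63 without CLC, and 2.23 and 2.11 in Albumin-derived HCC. The stromal lists overlapped between groups, except that both stellate and fibroblast sums with CLC were above those of Albumin-derived HCC. The 4 endothelial markers summed to 16.9 and 7.70 with CLC, 12.0 and 9.74 without CLC, and 10.8 and 5.99 in Albumin-derived HCC. The 5 stellate and fibroblast markers summed to 82.9 and 66.8 with CLC, 94.3 and 35.0 without CLC, and 32.8 and 58.9 in Albumin-derived HCC. Their part in the proteasome values was not tested.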
